A study of Mus musculus with 18 samples.

Results

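The spleens of Dp16 mice were compared with those of wild-type mice across all expressed genes. The comparison takes the 6 samples titled as Dp16 spleen and the 6 titled as wild-type spleen, 12 of the 18 samples of the series. The remaining 6, from Dp16 mice with normalized interferon receptor dosage, entered the statistical fit for its estimate of the spread and are not described. Wild-type (WT) animals were C57BL/6J. Dp16 animals carry an additional copy of the mouse chromosome 16 interval that runs from Lipi to Zbtb21, so that its genes are present in 3 copies instead of 2 in every cell. Each genotype had 3 males and 3 females and no treatment. The series title calls the mice adult, and an age label tagged as days post conception ran from 17.1 to 18.0 in both genotypes; its unit is not interpreted here. Poly(A) RNA of whole spleen was extracted with TRIzol and sequenced as strand-specific paired-end libraries. Nothing in the labels says whether the 6 samples of a genotype came from separate litters, so p-values measure the spread between these samples.

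The interval duplicated in Dp16 mice is the largest mouse segment that corresponds to human chromosome 21, and Dp16 is used as a model of trisomy 21. The spleen has a white pulp, where B and T lymphocytes are organized around arteries, and a red pulp, where macrophages remove old red cells. In the mouse the red pulp also keeps the capacity to form red cells, platelets and granulocytes in adult life, a process called extramedullary haematopoiesis.

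Counts per library ran from 36875189 to 46991153 in WT and from 33998427 to 47704112 in Dp16. Levels are given in CPM, counts scaled to a library of 1000000. Where a gene had a count of 0, as many as 3 counts remain possible, which is 0.0629 to 0.0882 CPM, and these floors cover counting error only. The label of the tissue was checked with Spic, the transcription factor of red pulp macrophages, which was at 66.7 to 97 CPM in WT (median 80.8) and 69.7 to 88.4 in Dp16 (median 74.8). Genes of pancreatic acinar cells, a tissue that can be cut out with the spleen, took at most 0.000108% of counts in any of the 12 libraries. The gene model Gm42418 lies over ribosomal RNA sequence and took 0.846% to 5.51% of counts in WT and 0.938% to 4.55% in Dp16, and exceeded 4% in WT replicate 4 and Dp16 replicates 2 and 3. In a principal component analysis of the 12 libraries the leading axis held 26.3% of the variance. All WT libraries lay at -6.34 or below on it and all Dp16 libraries at 13.2 or above. WT replicate 2 and Dp16 replicate 2 were the libraries nearest to the other genotype.

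In Dp16 spleens, genes of granules in neutrophils, of red cell and platelet formation and of dividing cells were higher, and genes of B cells were lower. Of 18634 genes tested, 29.8% differed between Dp16 and WT at an adjusted p below 0.05 (edgeR quasi-likelihood test with Benjamini-Hochberg adjustment, used for every adjusted p in this section). There were 3091 genes higher in Dp16 (16.6%) and 2462 lower (13.2%). Larger changes were mostly increases: 771 genes rose more than 2-fold (4.14%) and 131 fell more than 2-fold (0.703%). All 6 Dp16 libraries lay above all 6 WT libraries for 1580 genes (8.48%) and below them for 808 (4.34%). The median log2 fold change of all tested genes was -0.01. Calls were more frequent among abundant genes. Outside the interval, 30.8% of genes with a mean log2 CPM above 6 were higher and 22.6% lower, against 2.20% and 1.04% of those below 0. Genes named as the few calls of a list (5 or fewer), or marked as singled out, were chosen after their values were seen, and the others follow a rule given with the processing. The lists and their members were themselves chosen with earlier results of these data known. In bulk tissue a change in the number of cells of a type and a change in RNA per cell cannot be told apart.

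**Figure D1:**
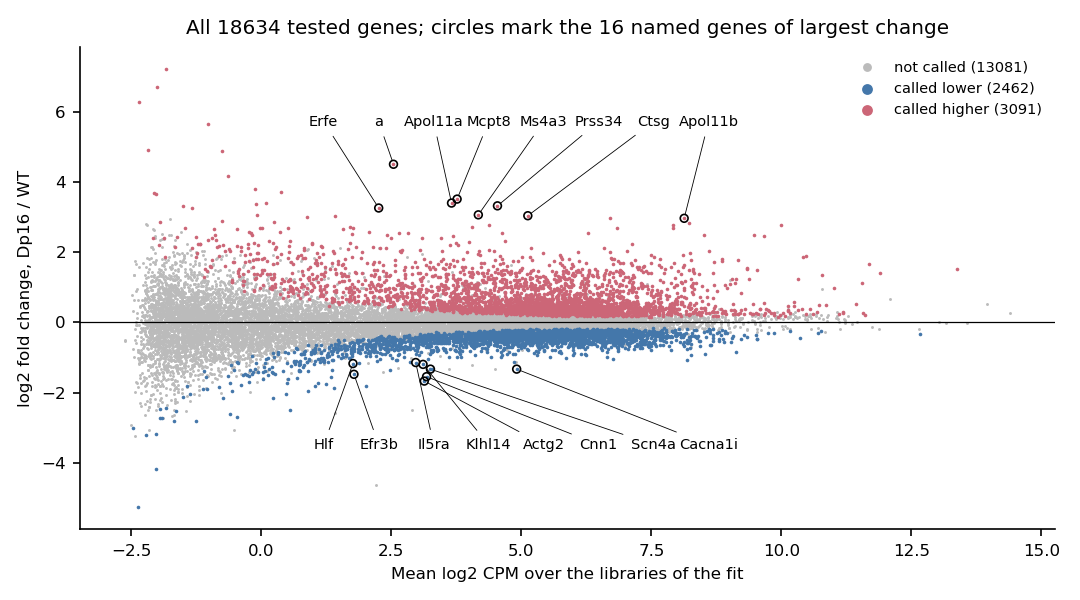
Each point is 1 of the 18634 tested genes, with its mean log2 CPM on the x axis and its log2 fold change of Dp16 over WT on the y axis; red and blue mark genes called higher (3091) and lower (2462). The circled genes are the 16 named protein-coding genes of largest change outside the interval, and the increases reach further from 0 than the decreases.

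The share of higher calls moved with the settings. Higher genes made up 55.7% of the calls. Their part was 43.4% when libraries were scaled by the upper quartile, and 36.2% when limma-trend was run on the deposited RPKM values, which changes the test and the values as well as the scaling, and where the median of all genes moved to -0.13. With a block on the code that some libraries of different genotypes share in their sample description, 1692 genes were higher and 835 lower, and in none of the 31 alternative settings did a gene turn from higher to lower or the reverse.

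Genes inside the triplicated interval rose by close to their copy ratio as a group. On GRCm38 it runs over 22.4 Mb of chromosome 16, from position 75540514 to 97962622. Of its 384 listed genes 113 were expressed enough to be tested, and 195 had 0 counts in all 12 libraries. Among the tested genes 69 rose, against 16.6% of all tested genes, and 0 fell. For 49 of them all Dp16 libraries lay above all WT libraries, against 8.48% of all tested genes. The median log2 fold change was 0.50, a fold of 1.42, where the copy ratio of 3 to 2 is a fold of 1.5 or 0.58 on the log2 scale. Interval genes together took 0.398% to 0.442% of counts in WT and 0.562% to 0.609% in Dp16, without overlap. Of protein-coding genes 61 of 83 were called higher, and of other gene types 8 of 30.

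**Figure D2:**
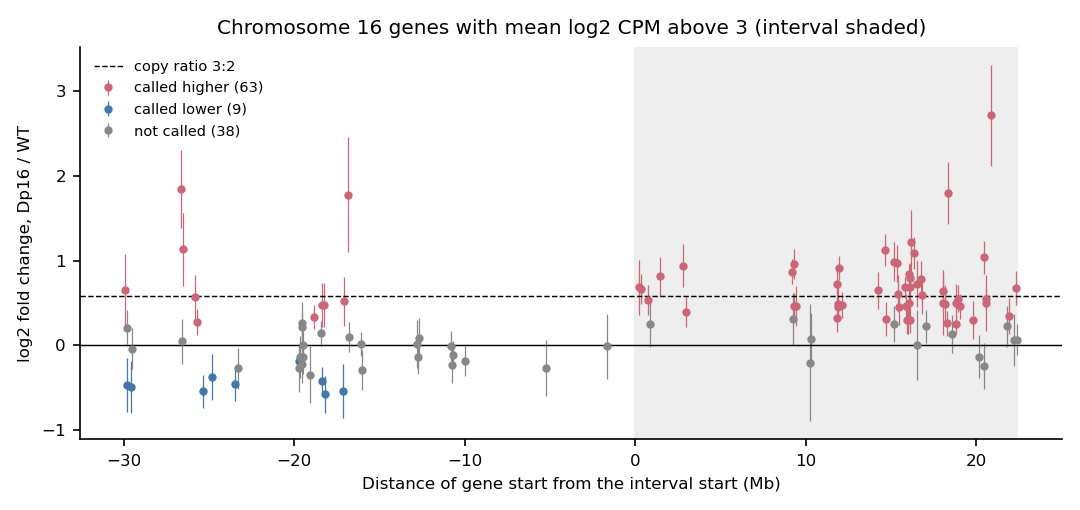
Each point is a chromosome 16 gene with a mean log2 CPM above 3, placed by the distance of its start from the start of the interval (x axis, Mb) and by its log2 fold change of Dp16 over WT (y axis), with 95% intervals; the interval is shaded. Inside it 0 genes were called lower and most points lie between 0 and 1 around the dashed copy ratio of 0.58, while outside it called genes go both ways.

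Genes next to the interval were mostly not called. On the distal side the next tested genes, B230307C23Rik and A630089N07Rik, had log2 fold changes of 0.02 and 0.03. On the proximal side the nearest tested gene, the axon guidance receptor gene Robo2, had -0.01, and among the 10 nearest only its relative Robo1 was called, as lower (-0.64, adjusted p = 0.0278). These flanking genes were singled out by position. Over the rest of chromosome 16, 464 genes were tested, of which 78 were higher and 76 lower, and the median was -0.01. Inside the interval, protein-coding genes whose mean log2 CPM exceeded 3 had medians of 0.67, 0.46, 0.63 and 0.48 in its 4 equal parts from the proximal end (6, 7, 28 and 23 genes).

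The abundant interval genes did not all change by the same amount. For these 64 abundant protein-coding genes the 95% interval of the change lay above the copy ratio for 15, below it for 20 and included it for 29. Sod1, which encodes the cytosolic superoxide dismutase (chromosome 16, 90220754 to 90226329 on the plus strand), was at 281 to 348 CPM in WT (median 302) and 587 to 797 in Dp16 (median 669.9). The groups did not overlap, and its log2 fold change of 1.12 ± 0.09 (SE, adjusted p = 9.33e-08) was about double on the linear scale (fold 2.18). Cct8, a subunit of the chaperonin that folds actin and tubulin, rose by 0.91 ± 0.07 (adjusted p = 4.42e-08), from 199 to 276 CPM in WT (median 241) to 411 to 491 in Dp16 (median 443). Atp5o, a subunit of mitochondrial ATP synthase, rose by 1.09 ± 0.09 (adjusted p = 1.37e-07) from 83.9 to 106 CPM in WT (median 87.4) to 166 to 206 in Dp16 (median 202). For both, all Dp16 libraries exceeded all WT libraries.

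Other measured members were Hmgn1, a nucleosome-binding protein (0.55 ± 0.06, adjusted p = 2.76e-06), the ubiquitin protease gene Usp25 (0.82 ± 0.11, adjusted p = 3.1e-05) and the kinase gene Dyrk1a (0.46 ± 0.07, adjusted p = 9.25e-05). Hmgn1 had little spread, with 174 to 208 CPM in WT (median 186) and 268 to 284 in Dp16 (median 275). The amyloid precursor gene App (0.46 ± 0.11, adjusted p = 0.00399) and the splicing cofactor gene Son (0.30 ± 0.07, adjusted p = 0.00334) rose with overlap between the groups: 4 of 6 and 5 of 6 Dp16 libraries exceeded the highest WT library. Gart, an enzyme of purine synthesis (0.84 ± 0.06, adjusted p = 2.3e-08), and Psmg1, an assembly chaperone of the proteasome (1.04 ± 0.09, adjusted p = 3.25e-07), were singled out after their values were seen; for both the groups did not overlap. Ifnar2, which encodes 1 chain of the receptor for type I interferon, was at a log2 fold change of 0.68 ± 0.06 and its partner Ifnar1 at 0.30 ± 0.08, and these also were chosen after their values were seen. Ifnar1, App and Son were no longer called when limma-trend was run on RPKM.

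Where the mean log2 CPM exceeded 3, the protein-coding genes of the interval that rose most were Itgb2l, Chaf1b and Itsn1. Itgb2l, a beta integrin-like gene of granulocytes (chromosome 16, 96422288 to 96443619 on the minus strand), was at 1.61 to 8.54 CPM in WT (median 2.68) and 11.4 to 50 in Dp16 (median 21.2), a log2 fold change of 2.72 ± 0.28 (adjusted p = 8.51e-06). Chaf1b, a subunit of the chromatin assembly factor that acts during DNA replication, was at 14.3 to 32.9 CPM in WT (median 19.9) and 62 to 80.1 in Dp16 (median 71.5) (1.79 ± 0.17, adjusted p = 2.9e-06). Itsn1, an endocytic scaffold protein, rose by 1.22 ± 0.18 (adjusted p = 0.000113). None of these 3 overlapped between the groups. At the other end, Brwd1, a chromatin reader of lymphocytes (-0.25 ± 0.13, adjusted p = 0.177), the protease gene Adamts1 (-0.21 ± 0.33, adjusted p = 0.699) and the transcription factor gene Ets2 (-0.14 ± 0.12, adjusted p = 0.447) did not pass the threshold, and Brwd1 passed it as lower without Dp16 replicate 2. Runx1, the transcription factor needed for blood stem cell formation, was at 54.5 to 69.2 CPM in WT (median 59.6) and 65.4 to 78.8 in Dp16 (median 71.5) and also missed the threshold (0.22 ± 0.09, adjusted p = 0.083), a gene singled out after its values were seen.

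Outside the interval the genes of largest increase belonged mostly to myeloid and red cell precursors. The basophil protease genes Mcpt8 (chromosome 14, 56082166 to 56085273 on the minus strand) and Prss34 rose by 3.51 ± 0.44 and 3.32 ± 0.39. Mcpt8 was at 0.618 to 3.94 CPM in WT (median 1.11) and 9.32 to 40.8 in Dp16 (median 16.6), and the lowest Dp16 library lay above the highest WT library. Ms4a3, a membrane protein of granulocyte and monocyte precursors (3.06 ± 0.26), and Ctsg, which encodes the granule protease cathepsin G (3.03 ± 0.27), rose likewise. Erfe encodes erythroferrone, the hormone that erythroblasts release to lower hepcidin. It was at 0.0399 to 2.44 CPM in WT (median 0.422) and 2.51 to 15.6 in Dp16 (median 5.02) (3.25 ± 0.75, adjusted p = 0.00435), so its WT values reached down to the counting floor and its fold is imprecise.

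The largest increase of all named genes was in a, the nonagouti gene (log2 fold change 4.50 ± 0.36). It was at 0.0613 to 0.66 CPM in WT (median 0.383) and 5.84 to 11.7 in Dp16 (median 7.75), and 1 WT value lay under the counting floor. Whether the added interval itself causes this increase was not tested. Apol11a and Apol11b, neighbouring members of the apolipoprotein L family on chromosome 15, rose by 3.39 ± 0.51 and 2.96 ± 0.51. Apol11b was at 10.4 to 139 CPM in WT (median 41.6) and 266 to 605 in Dp16 (median 364), and WT replicate 2 held the highest WT value of both. These are close relatives, and reads shared between them could be split by the counting. Lin28a, which encodes an inhibitor of let-7 microRNA processing, was chosen after its values were seen as the gene of smallest p, at 0.458 to 1.41 CPM in WT (median 0.814) and 3.35 to 6.93 in Dp16 (median 4.89) (2.52 ± 0.18, adjusted p = 2.3e-08).

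The genes of largest decrease were led by smooth muscle. Actg2, the smooth muscle gamma actin gene, was at 7.83 to 38.3 CPM in WT (median 13.3) and 3.52 to 7.13 in Dp16 (median 4.71) (-1.67 ± 0.34, adjusted p = 0.00128), and Cnn1, which encodes calponin, fell by 1.55 on the log2 scale with 5 of 6 Dp16 libraries below the lowest WT library. WT replicate 3 held the highest WT value of Actg2, far above the next WT library at 14.95 CPM. Klhl14, a Kelch family gene active in B cells (-1.20 ± 0.17, adjusted p = 5.18e-05), and Il5ra, the interleukin 5 receptor gene of eosinophils and B1 cells (-1.15 ± 0.19, adjusted p = 0.000158), fell without overlap between the groups. The others were Efr3b, a membrane anchor of a phosphoinositide kinase (-1.48), the channel genes Scn4a (-1.33) and Cacna1i (-1.33), and Hlf, a transcription factor of stem cells and of the clock output (-1.17). The Hlf call was lost without WT replicate 6 (log2 fold change -0.74, adjusted p = 0.0696).

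Neutrophil granule genes rose more than any other list examined by median. Azurophil granules form first, in promyelocytes, and hold myeloperoxidase and serine proteases. All 6 tested azurophil genes rose (median log2 fold change 2.82, range 2.40 to 3.06). Mpo, the myeloperoxidase gene (chromosome 11, 87793581 to 87804413 on the plus strand), was at 17.6 to 129 CPM in WT (median 49.6) and 208 to 719.5 in Dp16 (median 330.2) (2.69 ± 0.29, adjusted p = 2.14e-05), and Elane, the neutrophil elastase gene, was at 9.77 to 54.7 CPM in WT (median 23.2) and 91.1 to 293 in Dp16 (median 157) (2.67 ± 0.23, adjusted p = 2.67e-06). The groups did not overlap for any of the 6.

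Specific and gelatinase granules form later, in myelocytes and band cells. All 15 tested genes of this list rose (median 2.45, range 1.24 to 2.83), and for 14 of them the groups did not overlap. Ngp, a neutrophilic granule protein, went from 90 to 514 CPM in WT (median 173) to 827 to 2847 in Dp16 (median 1428) (2.78 ± 0.25, adjusted p = 3.45e-06). S100a9, a calprotectin subunit, went from 112 to 365 CPM in WT (median 176) to 664 to 2092 in Dp16 (median 1114) (2.45 ± 0.21, adjusted p = 2.19e-06). The cathelicidin gene Camp (2.83 ± 0.26) and the lactoferrin gene Ltf (2.48 ± 0.26), chosen after their values were seen, changed as much. The 15 genes together took 0.0579% to 0.220% of counts in WT and 0.316% to 1.09% in Dp16.

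Genes of mature neutrophils were higher in part. Of 10 tested 7 rose and 0 fell, with a median of 0.67, against 16.6% higher among all tested genes. Mxd1, an antagonist of MYC that is high in mature granulocytes, was at 55.7 to 108 CPM in WT (median 71.4) and 118 to 161 in Dp16 (median 143) (0.90 ± 0.13, adjusted p = 6.58e-05). The formyl peptide receptor gene Fpr2 rose by 1.67 ± 0.19, singled out as the largest. The 3 members that were not called were the granulocyte colony-stimulating factor receptor gene Csf3r (-0.01 ± 0.15, adjusted p = 0.977), with 35.1 to 60.1 CPM in WT (median 49.2) and 36.1 to 61.8 in Dp16 (median 47.6), the chemokine receptor gene Cxcr2 (-0.19 ± 0.15, adjusted p = 0.39) and the cytokine gene Il1b (-0.27 ± 0.35, adjusted p = 0.635). The groups overlapped for all 3. No difference between this list and the granule lists was tested.

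Basophil and eosinophil genes also rose. Of 11 basophil and mast cell genes 7 rose and 0 fell (median 1.31), against 16.6% higher among all tested genes. Prss34, a basophil protease gene, was at 1.09 to 6.4 CPM in WT (median 2.56) and 18.9 to 66.5 in Dp16 (median 27.7). Hdc, the enzyme that makes histamine, was at 7.06 to 17.8 CPM in WT (median 11.8) and 13.7 to 49.3 in Dp16 (median 25.5) (1.12 ± 0.19, adjusted p = 0.000322), with 4 of 6 Dp16 libraries above the highest WT library. Fcer1a, the alpha chain of the IgE receptor, was singled out at 0.0742 to 0.49 CPM in WT (median 0.289) and 0.928 to 4.85 in Dp16 (median 2.13) (2.99 ± 0.46, adjusted p = 9.49e-05). Of 9 eosinophil genes 6 rose and 1, Il5ra, fell (median 0.90). Prg2, the major basic protein gene, was at 15.1 to 48.5 CPM in WT (median 26.4) and 35.4 to 173 in Dp16 (median 61.2) (1.48 ± 0.29, adjusted p = 0.00154), and Ear2, an eosinophil ribonuclease gene with close relatives, at 19.2 to 25.3 CPM in WT (median 20.5) and 27.2 to 42.5 in Dp16 (median 32.3) (0.66 ± 0.09, adjusted p = 4.34e-05). With the block on the description code 1 eosinophil gene was called higher in place of 6.

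Megakaryocyte and platelet genes rose throughout their list. All 15 tested members rose (median 1.22, range 0.70 to 1.95), and for 7 of them the groups did not overlap. Ppbp, a platelet chemokine precursor, was at 58.7 to 127 CPM in WT (median 63) and 127 to 458 in Dp16 (median 185) (1.45 ± 0.23, adjusted p = 0.000245). Itgb3, the integrin subunit of the fibrinogen receptor, was at 66 to 103 CPM in WT (median 78) and 95.1 to 234 in Dp16 (median 121) (0.74 ± 0.18, adjusted p = 0.0054), with 4 of 6 Dp16 libraries above all WT libraries. Pf4, platelet factor 4, rose by 1.42 ± 0.20 and Gp1bb, a subunit of the von Willebrand factor receptor, by 1.95 ± 0.31, both chosen after their values were seen. Dp16 replicate 5 held the highest Dp16 value in 15 of 15 platelet genes and 21 of 21 granule genes, and without it 14 platelet genes were called higher (median 1.00) and all 15 specific and gelatinase granule genes (median 2.31). WT replicate 5 held the highest WT value in 15 platelet genes and 20 granule genes. With the block on the description code 6 of the 15 platelet genes were called.

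Red cell genes rose from the regulators of the lineage to its end products. The erythroid transcription factors Gata1 and Klf1 and the erythropoietin receptor Epor act early, haem and globin are made in the middle, and the membrane skeleton is assembled late. Of 10 regulators tested 9 rose (median 1.48). Zfpm1, the cofactor of GATA1, was at 101 to 249 CPM in WT (median 152) and 281 to 379 in Dp16 (median 337) (1.11 ± 0.25, adjusted p = 0.00316), and Lmo2, a bridging factor of the same complex, at 108 to 188 CPM in WT (median 132) and 187 to 269 in Dp16 (median 225) (0.65 ± 0.14, adjusted p = 0.00206). Klf1 was at 18.9 to 159.6 CPM in WT (median 70.4) and 184 to 310.5 in Dp16 (median 252) (1.87 ± 0.39, adjusted p = 0.00213), Gata1 at 17.3 to 90.7 CPM in WT (median 46.4) and 115 to 197 in Dp16 (median 127) (1.65 ± 0.30, adjusted p = 0.000855) and Epor at 12 to 58.8 CPM in WT (median 30.4) and 65.7 to 112 in Dp16 (median 78.7) (1.47 ± 0.29, adjusted p = 0.00143). The last 3 were chosen after their values were seen, and their groups did not overlap.

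All 8 haem synthesis genes rose (median 1.51, range 1.04 to 1.81). Alas2, the rate-limiting erythroid enzyme of the pathway, was at 158 to 628 CPM in WT (median 300.1) and 673 to 1136 in Dp16 (median 963) (1.50 ± 0.28, adjusted p = 0.0011). The groups did not overlap, although the highest WT library, replicate 2, came close to the lowest Dp16 library. All 7 genes of erythroid iron uptake rose (median 1.44), among them the mitochondrial iron importer gene Slc25a37 (1.54 ± 0.34, adjusted p = 0.00316) and the transferrin receptor gene Tfrc (1.58 ± 0.37, adjusted p = 0.00483).

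The promoter of Alas2 is shown because haem synthesis genes rose together and the GATA motif is the binding motif of GATA1. The window is 250 bases before to 50 after the RefSeq start on GRCm38.p6 (chrX:150547167-150547466, plus strand), with AGATAA, searched on both strands, in capitals.
Alas2: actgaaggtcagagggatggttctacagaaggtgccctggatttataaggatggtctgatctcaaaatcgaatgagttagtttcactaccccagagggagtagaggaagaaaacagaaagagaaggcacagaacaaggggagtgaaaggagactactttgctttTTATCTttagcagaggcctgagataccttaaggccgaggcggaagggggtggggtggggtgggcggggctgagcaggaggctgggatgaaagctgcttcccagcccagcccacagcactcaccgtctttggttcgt
AGATAA was in 2 of 6 haem synthesis promoters and 4 of 11 red cell membrane promoters, and in 12.7% of the promoters of all 27025 genes searched. The KLF1 motif CCACACCC was in 0 of 6 and 0 of 11, in 4.69% of the promoters of tested genes and in 4.09% of all. A match describes letters and says nothing of binding.

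Globin genes took 0.543% to 1.66% of counts in WT and 1.75% to 3.24% in Dp16, without overlap. Of 8 tested globin genes 6 rose and 0 fell (median 1.50), and Hba-x (1.50) and Hbb-bh1 (0.28), which encode embryonic chains, were not called. The beta globin gene Hbb-bs was at 2669.9 to 8144 CPM in WT (median 4127) and 8744 to 18068 in Dp16 (median 13213) (1.53 ± 0.25, adjusted p = 0.000407) and the alpha globin gene Hba-a1 at 943 to 3274 CPM in WT (median 1705) and 3576 to 6521 in Dp16 (median 4358) (1.40 ± 0.26, adjusted p = 0.000862). The paired copies Hba-a1 and Hba-a2, and Hbb-bs and Hbb-bt, are nearly identical, so that reads may be split between them. The members not called were the embryonic genes Hbb-bh1 and Hba-x.

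All 17 red cell membrane and skeleton genes rose (median 1.71, range 0.98 to 2.03). Slc4a1, the band 3 anion exchanger (chromosome 11, 102348824 to 102366203 on the minus strand), was at 104 to 1321 CPM in WT (median 426) and 1382 to 2144 in Dp16 (median 1775) (1.87 ± 0.48, adjusted p = 0.00904). Epb41, which encodes protein 4.1, was at 213 to 437 CPM in WT (median 287) and 468 to 729.9 in Dp16 (median 593) (0.98 ± 0.18, adjusted p = 0.000804). The Rh-associated gene Rhag (2.02 ± 0.39, adjusted p = 0.00138) was singled out for its large change. WT libraries differed widely: WT replicate 2 was the highest WT library in 47 of 50 red cell genes and WT replicate 4 the lowest in 38. Without WT replicate 2 17 membrane genes were called higher (median 2.11), and without the libraries rich in Gm42418, among them WT replicate 4, 10 were called (median 1.42).

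Genes of cell division rose together. Of 31 DNA replication genes 30 rose and 0 fell (median 0.92), and for 19 the groups did not overlap. Rrm2, the ribonucleotide reductase subunit that limits nucleotide supply, was at 52.7 to 275 CPM in WT (median 121) and 298 to 430.4 in Dp16 (median 378) (1.49 ± 0.29, adjusted p = 0.0012). Pcna, the sliding clamp of the replication fork, was at 113 to 261 CPM in WT (median 168) and 260.4 to 378 in Dp16 (median 335) (0.92 ± 0.15, adjusted p = 0.000196). Orc1, a subunit of the origin recognition complex, was singled out as the largest change (1.70 ± 0.36, adjusted p = 0.00212) and the polymerase delta gene Pold1 as the member not called (0.00 ± 0.08, adjusted p = 0.981).

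All 27 mitosis genes rose (median 1.18, range 0.40 to 1.62). Mki67, the proliferation antigen Ki-67, was at 157 to 765 CPM in WT (median 320.1) and 566 to 1158 in Dp16 (median 859), with 4 of 6 Dp16 libraries above the highest WT library (1.24 ± 0.32, adjusted p = 0.00873), and Top2a, the topoisomerase that resolves chromosomes, was at 101 to 329.7 CPM in WT (median 175) and 337 to 469 in Dp16 (median 368) (1.05 ± 0.19, adjusted p = 0.000604) without overlap. Cdk1, the mitotic kinase, rose by 1.37 ± 0.23, chosen after its value was seen. Clustered histone genes, whose transcripts mostly lack a poly(A) tail, had 6 of 51 higher and 0 lower, with 50 positive changes and a median of 1.17. The share higher, 11.8%, was under the 16.6% of all tested genes. For 0 of these histone genes did all Dp16 libraries lie above all WT libraries. The most abundant were H1f2 (0.60 ± 0.12, adjusted p = 0.000935) and H2bc4 (0.57 ± 0.11, adjusted p = 0.000731). The 51 histone genes took at most 0.0279% of counts, and the count of calls ran from 3 to 16 when 1 library was left out, the highest without WT replicate 2.

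The promoter of Cdc6, the loader of the replicative helicase, is shown because DNA replication genes rose as a list and E2F factors are their classical regulators. Cdc6 was at 14.9 to 62.7 CPM in WT (median 30.5) and 65.9 to 101 in Dp16 (median 77.4) (1.32 ± 0.26, adjusted p = 0.00147). The RefSeq window on GRCm38.p6 is chr11:98907901-98908200, plus strand, with the E2F motif TTTCCCGC, here on the reverse strand, in capitals.
Cdc6: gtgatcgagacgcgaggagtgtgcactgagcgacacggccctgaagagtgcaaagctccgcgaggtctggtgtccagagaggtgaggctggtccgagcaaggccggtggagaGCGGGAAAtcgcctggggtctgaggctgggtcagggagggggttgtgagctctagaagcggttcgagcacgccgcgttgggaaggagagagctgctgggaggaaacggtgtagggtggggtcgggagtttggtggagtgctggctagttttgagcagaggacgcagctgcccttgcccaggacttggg
TTTCCCGC was in 6 of 24 DNA replication promoters, 0 of 22 mitosis promoters, 2.16% of the promoters of tested genes and 1.24% of all promoters. The related TTTGGCGC was in 5 of 24 and 0.585% of all.

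WT replicate 2 was also the highest WT library in 55 of 58 division genes, WT replicate 4 the lowest in 55, and Dp16 replicate 3 the highest Dp16 library in 50. With each of the 12 libraries left out in turn, 30 replication and 27 mitosis genes were called higher. In males alone the counts were 29 and 26, and in females alone 4 and 9. Over all genes, males alone gave 2520 calls and females alone 817.

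**Figure D3:**
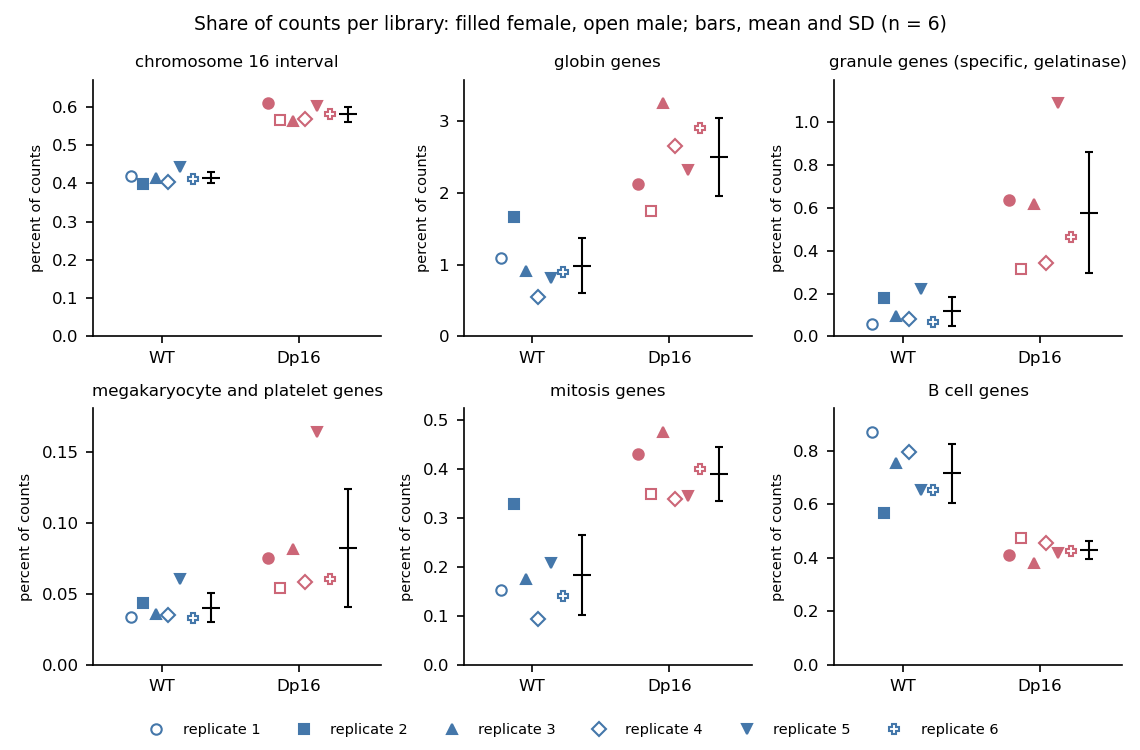
Percent of each library's counts on 6 gene groups (y axis) in WT (blue) and Dp16 (red); symbols mark the replicate, filled for females and open for males, and bars give mean and SD (n = 6). The 2 genotypes do not overlap for interval, globin, granule, mitosis or B cell genes, while WT replicate 5 exceeds 2 Dp16 libraries for platelet genes, and WT replicate 2 lies nearest to Dp16 for globin, mitosis and B cell genes.

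Stem and progenitor genes went both ways. Of 12 tested 4 rose and 1 fell, with a median of -0.07, against 16.6% higher and 13.2% lower among all tested genes. The granulocyte regulators Cebpe (2.40 ± 0.24, adjusted p = 2.09e-06) and Gfi1 (0.51 ± 0.12, adjusted p = 0.00203) and the transcription factor gene Myb (0.32 ± 0.11, adjusted p = 0.0292) were among those that rose, and Hlf fell. With the block on the description code 1 gene of the list was called higher. The call of Myb was lost on omission of WT replicates 2, 4 and 6 and of Dp16 replicates 1, 2 and 3 (adjusted p up to 0.0775). Cebpa, needed for the earliest granulocyte precursors, was at 33.9 to 57.3 CPM in WT (median 45.2) and 35.5 to 57.6 in Dp16 (median 41.5) (0.02 ± 0.13, adjusted p = 0.931).

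**Figure D4:**
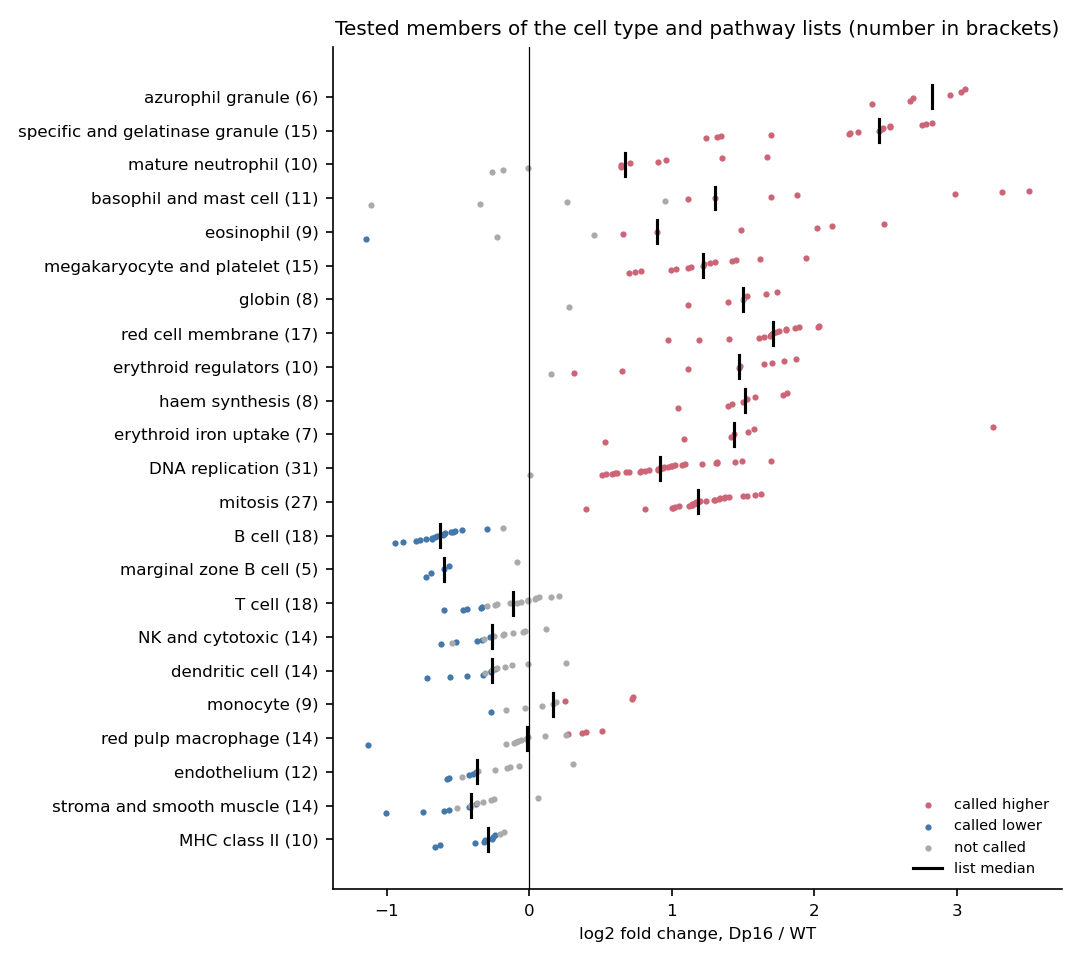
Each point is a tested gene of the list named on the y axis, at its log2 fold change of Dp16 over WT (x axis); red and blue mark genes called higher and lower, grey genes not called, and the black bar the list median. Granulocyte, red cell, platelet and division lists lie right of 0 (medians 0.67 to 2.82) and B cell lists left of it (-0.63 and -0.60).

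B cell genes fell. Of 18 tested 17 fell and 0 rose, with a median log2 fold change of -0.63, and for 14 all Dp16 libraries lay below all WT libraries, against 4.34% of all tested genes. Cd79a, the signalling chain of the B cell receptor, was at 770.0 to 1038 CPM in WT (median 864) and 557 to 734 in Dp16 (median 646) (-0.47 ± 0.09, adjusted p = 0.000629), and the groups did not overlap. Cd37, a tetraspanin of B cells, was at 472 to 761 CPM in WT (median 588) and 357 to 499 in Dp16 (median 396) (-0.55 ± 0.11, adjusted p = 0.000549), with 5 of 6 Dp16 libraries below the lowest WT library. Pax5, the transcription factor that keeps B cell identity, was singled out and fell from 334 to 599 CPM in WT (median 410.1) to 179.6 to 304 in Dp16 (median 225) (-0.94 ± 0.16, adjusted p = 0.000303), the largest change in the list. The coreceptor gene Cr2 (-0.77), the IgM receptor gene Fcmr (-0.89) and the IgE receptor gene Fcer2a (-0.79), also singled out, fell too. The B cell genes together took 0.569% to 0.871% of counts in WT and 0.379% to 0.475% in Dp16. WT replicate 2 was the lowest WT library in 13 of 18.

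Marginal zone B cells sit at the border of the white pulp and depend on Notch2. Of 5 tested markers 4 fell (median -0.60): Notch2 at 162 to 250.2 CPM in WT (median 226) and 111 to 177 in Dp16 (median 126) (-0.73 ± 0.13, adjusted p = 0.000328), its target Dtx1 at 243 to 357 CPM in WT (median 299.9) and 178 to 238 in Dp16 (median 208) (-0.56 ± 0.10, adjusted p = 0.000391), the sphingosine phosphate receptor gene S1pr3 (-0.69 ± 0.12, adjusted p = 0.000219) and the antigen-presenting gene Cd1d1 (-0.60 ± 0.11, adjusted p = 0.000463). Of 4 tested precursor B cell genes 1 fell, the surrogate light chain gene Vpreb3 (-0.50 ± 0.15, adjusted p = 0.0173). The share lower among all tested genes was 13.2%. Dntt, which encodes terminal transferase, was at 1.78 to 3.9 CPM in WT (median 2.79) and 1.42 to 3.1 in Dp16 (median 1.92) (-0.49 ± 0.23, adjusted p = 0.119).

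Calls among immunoglobulin constant and plasma cell genes were few, near the shares of all tested genes (16.6% higher and 13.2% lower). Of 12 immunoglobulin constant genes 1 rose, Ighg2b (0.98 ± 0.34, adjusted p = 0.0416), and 2 fell, Ighd (-0.84 ± 0.10, adjusted p = 5.43e-06) and Iglc3 (-0.39 ± 0.12, adjusted p = 0.0182). Ighd marks naive B cells and was at 599 to 1026 CPM in WT (median 707) and 368 to 558 in Dp16 (median 423). Igkc was at 7048 to 17531 CPM in WT (median 10119.5) and 12251 to 20367 in Dp16 (median 17284) (0.53 ± 0.23, adjusted p = 0.102) and Ighm at 6303 to 24177 CPM in WT (median 9849) and 9520.3 to 14636 in Dp16 (median 11955) (-0.01 ± 0.31, adjusted p = 0.991), with wide overlap. Without WT replicate 2, 3 constant genes and 4 plasma cell genes were called higher. The call of Ighg2b was lost on omission of WT replicates 1, 4 and 5 and of Dp16 replicates 1, 2, 3, 4, 5 and 6 (adjusted p up to 0.0926).

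Of 13 plasma cell genes 2 rose, Jchain (0.49 ± 0.18, adjusted p = 0.04996) and the signal peptidase gene Sec11c (0.36 ± 0.11, adjusted p = 0.0192), and 1 fell, the transcription factor gene Irf4 (-0.52 ± 0.13, adjusted p = 0.00405). The call of Jchain was lost on omission of WT replicates 1, 3, 4 and 5 and of Dp16 replicates 1, 2, 3, 4 and 6 (adjusted p up to 0.112) and that of Sec11c on omission of WT replicates 4 and 5 and of Dp16 replicate 4 (adjusted p up to 0.0589). Txndc5 was at 241 to 564 CPM in WT (median 307) and 296 to 452 in Dp16 (median 389) (0.05 ± 0.20, adjusted p = 0.891). Of 8 germinal centre genes 4 rose and 1 fell (median 0.63), against 16.6% higher and 13.2% lower among all tested genes. The DNA glycosylase gene Neil1 (0.46 ± 0.13, adjusted p = 0.00831), Gcsam (0.66 ± 0.20, adjusted p = 0.0173), Mybl1 (0.80 ± 0.29, adjusted p = 0.0458) and Rgs13 (1.10 ± 0.36, adjusted p = 0.0271) rose and the master regulator Bcl6 (-0.31 ± 0.11, adjusted p = 0.0448) fell. The 4 higher calls of this list were lost without the libraries rich in Gm42418 and with the block on the description code, and 2 were left without any 1 of WT replicates 1, 4 and 5 and Dp16 replicates 3 and 4. The call of Mybl1 was lost on omission of WT replicates 1, 4 and 5 and of Dp16 replicates 1, 2, 3, 4, 5 and 6 (adjusted p up to 0.0991), that of Rgs13 on omission of WT replicates 1, 4 and 5 and of Dp16 replicates 3 and 4 (adjusted p up to 0.0681) and that of Bcl6 on omission of WT replicates 1, 3, 4 and 6 and of Dp16 replicates 1, 2, 3, 5 and 6 (adjusted p up to 0.169).

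T cell genes were lower in part. Among all tested genes 13.2% were lower, and 22.6% of those outside the interval with a mean log2 CPM above 6. Of 18 tested T cell genes 0 rose and 5 fell (27.8%), with a median of -0.11. The count was 8 without WT replicate 2 or with limma-trend on RPKM, and 2 with the block on the description code. Among the lower members were Cd8a (-0.60 ± 0.09, adjusted p = 9.86e-05), Cd8b1 (-0.33 ± 0.10, adjusted p = 0.0151), Ccr7, the receptor that guides cells to the T zone (-0.34 ± 0.09, adjusted p = 0.00749), and the transcription factor gene Bcl11b (-0.46 ± 0.15, adjusted p = 0.0234), whose call was lost on omission of WT replicates 3 and 4 and of Dp16 replicates 3 and 5 (adjusted p up to 0.0624). Cd4, singled out, was at 181 to 236 CPM in WT (median 211) and 214 to 262 in Dp16 (median 247) (0.21 ± 0.10, adjusted p = 0.137) and Tcf7 at 236 to 331 CPM in WT (median 274) and 215 to 291 in Dp16 (median 233) (-0.22 ± 0.09, adjusted p = 0.0626), neither called.

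Of 14 NK and cytotoxic genes 0 rose and 5 fell (35.7%, median -0.26), against 13.2% lower among all tested genes. With the block on the description code 0 were called lower, with limma-trend on RPKM 8, and the count was 2 or 3 without any 1 of WT replicates 3 and 5 and Dp16 replicates 1, 4 and 6. They were the transcription factor gene Eomes (-0.62 ± 0.15, adjusted p = 0.00297), the receptor genes Klrk1 (-0.37 ± 0.09, adjusted p = 0.00499) and Klre1 (-0.52 ± 0.19, adjusted p = 0.047), the perforin gene Prf1 (-0.33 ± 0.11, adjusted p = 0.0198) and the interleukin 2 receptor gene Il2rb (-0.28 ± 0.10, adjusted p = 0.0388). The calls of Il2rb, Klre1 and Prf1 were lost on omission of WT replicates 3, 5 and 6 and of Dp16 replicates 1, 3, 4, 5 and 6 (adjusted p up to 0.111), WT replicates 1, 2, 3, 5 and 6 and of Dp16 replicates 1, 2, 3, 4 and 6 (adjusted p up to 0.129) and WT replicate 3 and of Dp16 replicates 1 and 4 (adjusted p up to 0.0607). Nkg7, a cytotoxic granule gene, was at 30.4 to 39.6 CPM in WT (median 34.8) and 32.9 to 43.6 in Dp16 (median 36.3) (0.11 ± 0.10, adjusted p = 0.42).

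Dendritic cell genes had 7 of 14 lower and 0 higher (median -0.26), against 13.2% lower among all tested genes. The count was 3 without WT replicate 5, 4 without Dp16 replicate 3 or 6 or without the libraries rich in Gm42418, and 2 with the block on the description code. Wdfy4, needed for cross-presentation of antigen, was at 334 to 525 CPM in WT (median 408) and 197 to 353 in Dp16 (median 239) (-0.72 ± 0.13, adjusted p = 0.000304), and Irf8 was at 366 to 488 CPM in WT (median 411) and 296 to 441 in Dp16 (median 361) (-0.24 ± 0.09, adjusted p = 0.0436). The call of Irf8 was lost on omission of WT replicates 3, 5 and 6 and of Dp16 replicates 1, 2, 3 and 6 (adjusted p up to 0.134). MHC class II genes, which dendritic and B cells share, had 8 of 10 lower and 0 higher (median -0.29). Their count was 5 without any 1 of WT replicates 3 and 4 and Dp16 replicates 1 and 6, and 2 with the code block or in either sex alone. Cd74, the invariant chain, was at 6439 to 8478 CPM in WT (median 7553) and 5334 to 6881 in Dp16 (median 5900.2) (-0.32 ± 0.08, adjusted p = 0.00335), H2-Ab1 at 2095 to 2851 CPM in WT (median 2379) and 1837 to 2439.9 in Dp16 (median 2039) (-0.18 ± 0.08, adjusted p = 0.117), and the class II transactivator gene Ciita fell by 0.63 on the log2 scale, chosen after its value was seen.

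Monocyte genes were mixed, with 3 of 9 higher (1 with the code block) and 1 lower (median 0.17). Among all tested genes 16.6% were higher and 13.2% lower. Ly6c2, the marker of inflammatory monocytes, was at 73.6 to 94.3 CPM in WT (median 83.4) and 106 to 185 in Dp16 (median 135) (0.73 ± 0.10, adjusted p = 3.35e-05), and F13a1, a coagulation factor gene (0.72 ± 0.18, adjusted p = 0.00532), and Spn (0.25 ± 0.07, adjusted p = 0.0143) also rose. Csf1r, the receptor for macrophage growth factor, fell (-0.27 ± 0.09, adjusted p = 0.0332), a call lost on omission of WT replicates 2, 5 and 6 and of Dp16 replicates 1 and 3 (adjusted p up to 0.102).

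Red pulp macrophage genes went both ways, with 4 of 14 higher, 1 lower and a median of -0.02, against 16.6% higher and 13.2% lower among all tested genes. With the code block 2 were higher, and with limma-trend on RPKM 1. Hmox1, the haem oxygenase that breaks down haem, was at 526 to 746 CPM in WT (median 635) and 515 to 891 in Dp16 (median 589) (-0.01 ± 0.11, adjusted p = 0.957), and Vcam1 at 442 to 903 CPM in WT (median 512) and 445 to 738 in Dp16 (median 629) (0.11 ± 0.16, adjusted p = 0.659). The members that rose were Cd5l (0.51 ± 0.13, adjusted p = 0.00534) and the complement genes C1qa (0.37 ± 0.09, adjusted p = 0.00533), C1qb (0.39 ± 0.11, adjusted p = 0.00713) and C1qc (0.27 ± 0.08, adjusted p = 0.0162, lost on omission of WT replicate 1 (adjusted p up to 0.0517)). Siglec1, a sialic acid receptor that marks metallophilic macrophages of the marginal zone, fell from 31 to 71.3 CPM in WT (median 40.4) to 15.2 to 30.3 in Dp16 (median 18.6) (-1.13 ± 0.24, adjusted p = 0.00216), without overlap.

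Vessel and stroma genes were lower in part. Calls as lower took 41.7% of the endothelial and 42.9% of the stromal list, against 13.2% of all tested genes. Outside the interval, 22.6% of genes with a mean log2 CPM above 6 were lower. Of 12 endothelial genes 0 rose and 5 fell (median -0.37): Pecam1, the adhesion molecule CD31, at 172 to 223 CPM in WT (median 203) and 146 to 159.6 in Dp16 (median 155) (-0.38 ± 0.07, adjusted p = 0.000351), the sinus scavenger receptor gene Stab2 (-0.56 ± 0.09, adjusted p = 0.000193), the VEGF receptor gene Kdr (-0.58 ± 0.13, adjusted p = 0.00166), the cadherin gene Cdh5 (-0.42 ± 0.11, adjusted p = 0.00537) and Tie1 (-0.40 ± 0.08, adjusted p = 0.000985). Eng was at 118 to 142 CPM in WT (median 126) and 87.9 to 129 in Dp16 (median 107) (-0.24 ± 0.09, adjusted p = 0.0507). Of 14 stromal and smooth muscle genes 0 rose and 6 fell (median -0.41). Myh11, the smooth muscle myosin gene, was at 67.1 to 116 CPM in WT (median 83.6) and 33.4 to 62.6 in Dp16 (median 42.5) (-1.01 ± 0.16, adjusted p = 0.000183), Acta2 at 139 to 199 CPM in WT (median 172) and 92.8 to 158 in Dp16 (median 108) (-0.60 ± 0.14, adjusted p = 0.00262), and the B cell chemoattractant gene Cxcl13 at 120.1 to 166 CPM in WT (median 134) and 55.5 to 98 in Dp16 (median 84.3) (-0.75 ± 0.11, adjusted p = 5.18e-05). These 3 were singled out. The 2 most abundant members, Cxcl12 (-0.33 ± 0.16, adjusted p = 0.129) and the collagen gene Col1a2 (-0.27 ± 0.12, adjusted p = 0.0903), were not called. Without the libraries rich in Gm42418 2 stromal genes were called lower.

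Genes that type I interferon induces went both ways. The list holds genes outside the interval only. Of 37 tested 11 rose (29.7%), 7 fell (18.9%) and 19 were not called, against 16.6% higher and 13.2% lower among all tested genes, and the median was 0.22. Rsad2, the antiviral enzyme viperin (chromosome 12, 26442746 to 26456452 on the minus strand), was at 46.8 to 216 CPM in WT (median 86.8) and 255 to 515 in Dp16 (median 369) (1.92 ± 0.31, adjusted p = 0.000366). Helz2, a helicase and nuclear coactivator, was at 183 to 293 CPM in WT (median 256) and 129 to 195 in Dp16 (median 137) (-0.79 ± 0.13, adjusted p = 0.000241). All Dp16 libraries exceeded all WT libraries for Rsad2, and 5 of 6 lay below the lowest WT library for Helz2.

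Other members were singled out after their values were seen. Isg15, a ubiquitin-like modifier, was at 16.3 to 66.8 CPM in WT (median 25.9) and 92.5 to 201 in Dp16 (median 123) (2.13 ± 0.31, adjusted p = 0.000179), the largest increase of the list. Oas3, an oligoadenylate synthetase (1.20 ± 0.22, adjusted p = 0.000807), Irf7, the factor that amplifies interferon production (0.76 ± 0.11, adjusted p = 6.56e-05), and Ifit1 (0.66 ± 0.12, adjusted p = 0.000482) rose. Samd9l (-0.63 ± 0.10, adjusted p = 0.000128) and Ddx58, the RNA sensor RIG-I (-0.56 ± 0.09, adjusted p = 0.000151), fell. Canonical members such as Ifit2 (0.02) and Ifit3 (-0.07) were not called. WT replicate 2, the WT library highest in most red cell genes, was also the highest WT library for Isg15 (66.8 CPM) and Rsad2 (216 CPM); the part of red cell RNA in these values was not tested. Without WT replicate 2 the list had 13 higher, and its median was 0.26. The lower calls numbered 4 without any 1 of WT replicates 3 and 5 and Dp16 replicate 3, and 3 with the code block, while females alone gave 1 higher and 3 lower.

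**Figure D5:**
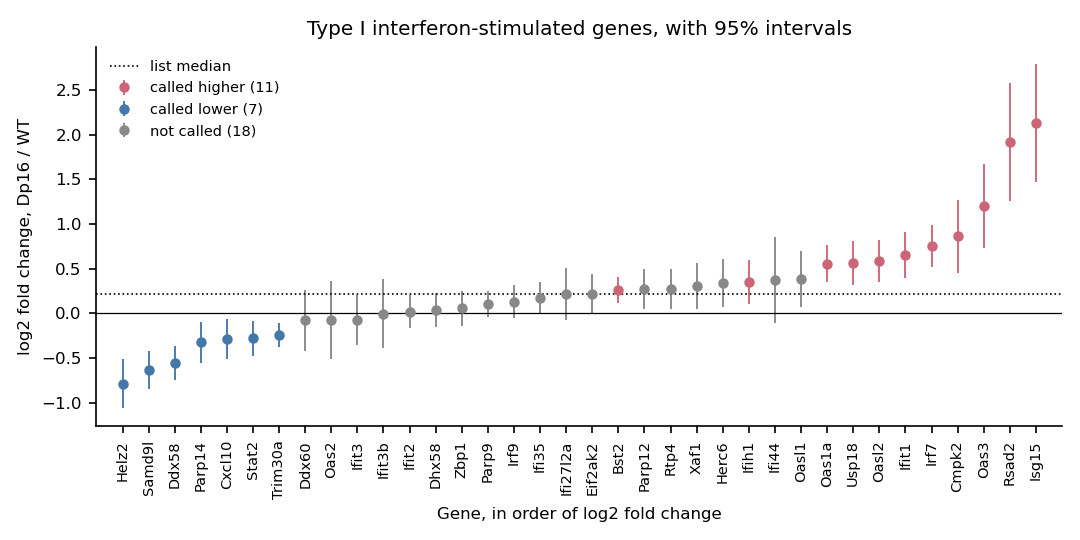
Type I interferon-stimulated genes, 36 of the 37 tested, in order of their log2 fold change of Dp16 over WT (y axis), with 95% intervals; red and blue mark genes called higher (11) and lower (7). Isg15 and Rsad2 stand at 2.13 and 1.92 while the dotted list median is 0.22.

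The promoters of the 2 genes of largest increase and of 1 that fell are shown to set the motif of interferon regulatory factors beside the opposite changes. Each is the RefSeq window on GRCm38.p6 of 250 bases before to 50 after the start, with their core motif AANNGAAA, searched on both strands, in capitals (overlapping matches joined): Isg15 at chr4:156200769-156201068, minus strand, Rsad2 at chr12:26456403-26456702, minus strand and Ddx58 at chr4:40239776-40240075, minus strand.
Isg15: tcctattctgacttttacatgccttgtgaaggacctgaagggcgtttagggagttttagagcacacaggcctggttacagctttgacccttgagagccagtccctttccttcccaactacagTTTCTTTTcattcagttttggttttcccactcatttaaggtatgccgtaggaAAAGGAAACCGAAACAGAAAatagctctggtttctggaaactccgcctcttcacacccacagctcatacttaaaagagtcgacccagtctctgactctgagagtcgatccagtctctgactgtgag
Rsad2: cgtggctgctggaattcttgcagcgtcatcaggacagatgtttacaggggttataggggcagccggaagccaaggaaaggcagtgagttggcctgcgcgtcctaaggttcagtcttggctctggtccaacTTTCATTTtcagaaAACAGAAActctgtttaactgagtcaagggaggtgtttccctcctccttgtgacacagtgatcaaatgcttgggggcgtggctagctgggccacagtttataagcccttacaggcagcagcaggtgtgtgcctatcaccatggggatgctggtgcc
Ddx58: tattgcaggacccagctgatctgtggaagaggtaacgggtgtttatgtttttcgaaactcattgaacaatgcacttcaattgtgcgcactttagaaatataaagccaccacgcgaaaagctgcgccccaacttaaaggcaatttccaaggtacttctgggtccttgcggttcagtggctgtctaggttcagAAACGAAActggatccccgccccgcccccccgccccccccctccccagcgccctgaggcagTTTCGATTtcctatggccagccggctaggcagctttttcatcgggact
Isg15 held 4 matches, Rsad2 2 and Ddx58 2. This short form was chosen after a longer form had been searched. RefSeq windows were found for 28 of the 37 genes. The motif was in 21 of them, in 7 of 10 of the members that rose and 6 of 6 of those that fell, in 22.1% of the promoters of tested genes and in 26.7% of all. The letters were present in members of both directions.

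Calls were few among interferon gamma targets and class I presentation genes, under the shares of all tested genes (16.6% higher and 13.2% lower). Of 22 interferon gamma-stimulated genes 2 rose and 2 fell (median 0.07), and 4 were called lower without WT replicate 4 or with limma-trend on RPKM. The GTPase genes Gbp2b (1.09 ± 0.30, adjusted p = 0.00938) and Igtp (0.36 ± 0.10, adjusted p = 0.00947) rose, and Gbp9 (-0.45 ± 0.08, adjusted p = 0.000429) and the class I transactivator gene Nlrc5 (-0.31 ± 0.11, adjusted p = 0.0329) fell, the last with its call lost on omission of WT replicates 3, 5 and 6 and of Dp16 replicates 3, 4, 5 and 6 (adjusted p up to 0.0911). Irf1, which encodes a transcription factor induced by interferon gamma, was at 166 to 221 CPM in WT (median 179.9) and 143 to 181 in Dp16 (median 158) (-0.21 ± 0.08, adjusted p = 0.0611). Of 10 MHC class I and peptide loading genes 1 rose, B2m (0.27 ± 0.08, adjusted p = 0.0163), a call lost on omission of WT replicate 4 (adjusted p up to 0.0514), and H2-K1 was at 2210.2 to 2736 CPM in WT (median 2278) and 2262 to 2685 in Dp16 (median 2388) (0.02 ± 0.08, adjusted p = 0.88).

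Genes of protection from oxidants rose. Of 16 tested outside the interval 15 rose and 0 fell (median 0.59), and for 10 the groups did not overlap. Gpx1, a glutathione peroxidase, was at 506 to 1423 CPM in WT (median 824) and 1524 to 2897 in Dp16 (median 2071) (1.35 ± 0.21, adjusted p = 0.000245). Prdx2, the peroxiredoxin abundant in red cells, was at 141 to 586 CPM in WT (median 279) and 606 to 1107 in Dp16 (median 791) (1.51 ± 0.29, adjusted p = 0.00116). Nqo1, a quinone reductase and NRF2 target, was singled out at 1.93 to 9.42 CPM in WT (median 4.63) and 10.1 to 17.1 in Dp16 (median 13.1) (1.52 ± 0.28, adjusted p = 0.00059).

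Energy and protein turnover genes rose by smaller amounts. Of 17 glycolysis genes 9 rose and 0 fell (52.9% higher, median 0.26), against 16.6% higher among all tested genes. Gapdh was at 466 to 607 CPM in WT (median 528) and 645 to 732 in Dp16 (median 702) (0.39 ± 0.07, adjusted p = 0.000346) and Pkm at 488 to 584 CPM in WT (median 531) and 607 to 768 in Dp16 (median 618) (0.26 ± 0.08, adjusted p = 0.0218), and the latter lost its call on omission of WT replicates 1 and 5 and of Dp16 replicate 5 (adjusted p up to 0.0697). The genes of the red cell isoforms and its side branch, the pyruvate kinase gene Pklr (1.58 ± 0.27, adjusted p = 0.000559) and the bisphosphoglycerate mutase gene Bpgm (1.12 ± 0.23, adjusted p = 0.00161), changed most and were chosen after their values were seen. Nuclear genes of the respiratory chain had 70 of 80 higher and 0 lower (median 0.46), among them the ATP synthase genes Atp5b (0.39 ± 0.08, adjusted p = 0.000934) and Atp5a1 (0.27 ± 0.06, adjusted p = 0.00147). The 13 mitochondrially encoded genes had a median of -0.18 and 0 called by edgeR, 3 of them at an unadjusted p under 0.05, while DESeq2 called 2 lower. The most abundant were mt-Co1, at 5293 to 8557 CPM in WT (median 6774) and 5051 to 6901 in Dp16 (median 6027) (-0.19 ± 0.11, adjusted p = 0.204), and mt-Cytb (-0.18 ± 0.12, adjusted p = 0.316).

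Proteasome genes had 35 of 38 higher and 0 lower (median 0.41). Psmd2, a subunit of the regulatory particle, was at 188 to 232 CPM in WT (median 192) and 239 to 269 in Dp16 (median 247) (0.32 ± 0.06, adjusted p = 0.000592), without overlap. The 3 not called were the interferon-inducible immunoproteasome subunits Psmb8, Psmb9 and Psmb10, with log2 fold changes of 0.03, 0.15 and -0.00172; Psmb8 was at 252 to 315 CPM in WT (median 277) and 241 to 344 in Dp16 (median 295) (0.03 ± 0.09, adjusted p = 0.823). Cytosolic ribosomal protein genes had 22 of 82 higher (26.8%) and 0 lower (median 0.19). Among all tested genes 16.6% were higher, and 30.8% of those outside the interval with a mean log2 CPM above 6. Rplp0 was at 1913 to 2137 CPM in WT (median 2083) and 2223 to 2771 in Dp16 (median 2321) (0.25 ± 0.08, adjusted p = 0.0256) and Rpl4 at 2025 to 2147 CPM in WT (median 2067) and 2072 to 2364 in Dp16 (median 2238) (0.10 ± 0.06, adjusted p = 0.205), and the call of Rplp0 was lost on omission of WT replicates 1 and 4 and of Dp16 replicates 3 and 4 (adjusted p up to 0.0733). The ribosomal count was 5 with limma-trend on RPKM, 8 with upper quartile scaling and 9 without the libraries rich in Gm42418, and 11 to 14 without any 1 of WT replicates 4, 5 and 6 and Dp16 replicates 3 and 4.

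Genes of the BCL2 family went both ways. Among all tested genes 16.6% were higher and 13.2% lower, and 30.8% and 22.6% of those outside the interval with a mean log2 CPM above 6. Of 13 family genes tested 4 rose (30.8%, 1 gene with the code block) and 3 fell (23.1%, 5 genes with limma-trend on RPKM). Bcl2l1, which encodes BCL-XL, the survival factor of erythroblasts and platelets, was at 37.6 to 114 CPM in WT (median 57.2) and 115 to 181 in Dp16 (median 159) (1.29 ± 0.22, adjusted p = 0.000406), and Bcl2, the survival factor of lymphocytes, at 71.1 to 112 CPM in WT (median 92.1) and 49.4 to 72.3 in Dp16 (median 52.9) (-0.71 ± 0.11, adjusted p = 0.000127). The most abundant members were Mcl1 at 644 to 816 CPM in WT (median 692) and 521 to 615 in Dp16 (median 567) (-0.35 ± 0.07, adjusted p = 0.00114) and the pore-forming Bak1 at 92.3 to 110.2 CPM in WT (median 102) and 113 to 146 in Dp16 (median 136) (0.40 ± 0.07, adjusted p = 0.00044). The death promoters Bad (0.42 ± 0.11, adjusted p = 0.0046) and Bax (0.22 ± 0.08, adjusted p = 0.0481) rose and Bmf (-0.93 ± 0.11, adjusted p = 6.55e-06) fell, and the call of Bax was lost on omission of WT replicates 1, 2, 4, 5 and 6 and of Dp16 replicates 1, 3, 4, 5 and 6 (adjusted p up to 0.124). Bcl2l1, Bcl2, Bad, Bax and Bmf were chosen after their values were seen.

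Circadian clock and immediate early genes were lower in part. Of 17 clock genes 0 rose and 8 fell (median -0.40), against 13.2% lower among all tested genes. The count was 5 without WT replicate 6 or without the libraries rich in Gm42418, 1 with the block on the description code and 0 in females alone. Among the 8 was the clock-controlled period gene Per3 (-0.63 ± 0.15, adjusted p = 0.00241), chosen after its value was seen. The most abundant members, Per1 (-0.21 ± 0.22, adjusted p = 0.533) and Bhlhe40 (-0.14 ± 0.10, adjusted p = 0.314), were not called. Of 16 immediate early genes 0 rose and 7 fell (median -0.36), and 4 were called lower with the code block. Zfp36, which promotes decay of cytokine transcripts, was at 155 to 222 CPM in WT (median 187) and 125 to 163 in Dp16 (median 128) (-0.45 ± 0.10, adjusted p = 0.00133), Btg2 at 178 to 257 CPM in WT (median 211) and 174 to 219.5 in Dp16 (median 203) (-0.10 ± 0.09, adjusted p = 0.476), and Egr3, singled out, fell from 46.4 to 71.2 CPM in WT (median 55.7) to 26.8 to 40.4 in Dp16 (median 30.5) (-0.83 ± 0.13, adjusted p = 7.63e-05). The hour of dissection is not given in the labels.

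Males and females were compared by the interaction of sex and genotype, which 0 genes passed (edgeR interaction test, 439 of 18634 or 2.36% at an unadjusted p under 0.05). Red cell membrane genes had a median log2 fold change of 2.46 in males and 1.14 in females, and mitosis genes 1.57 and 0.85. Slc4a1 had 2.75 in males and 1.18 in females. WT replicate 2, the library highest in red cell genes among WT, is female and WT replicate 4, the lowest, is male. Specific and gelatinase granule genes had 2.50 and 2.26, B cell genes -0.65 and -0.64 and interval genes 0.55 and 0.51. With 3 against 3 libraries of 1 sex, 16 of 17 red cell membrane genes were called in males and 1 in females, against 15 and 14 of the 15 specific and gelatinase granule genes and 15 and 13 of the 18 B cell genes. Haem synthesis genes had 8 of 8 called in males and 0 in females, erythroid regulators 8 and 0 of 10, and globin genes 5 and 0 of 8. The medians of these lists in males alone were 1.922, 1.994 and 1.654, and in females alone 1.155, 1.046 and 1.361. Over all genes the fit of males called 2520 and that of females 817. DNA replication genes had 29 and 4 of 31, and mitosis genes 26 and 9 of 27.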

How the data were processed

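Per the submitters' processing notes, the authors used bcl2fastq, FastQC 0.11.5, HISAT2 2.1.0, SAMtools 1.5 and HTSeq 0.6.1 with GRCm38; whether counting used strand is not given in the sources used here. The deposited count table holds whole read counts per gene for 55385 genes. The deposited RPKM values equal those counts per kilobase and library total (largest relative deviation 2e-15, over 11538 genes with at least 100 counts). Positions were matched by gene ID from a GENCODE vM21 table for 99.6% of genes.

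Counts of all 18 libraries were filtered with filterByExpr, scaled by TMM and fitted with edgeR 4.0.16 (R 4.3.3) by genotype and sex in a quasi-likelihood model; Dp16 was tested against WT with Benjamini-Hochberg adjustment over all tested genes. Log2 fold changes carry standard errors (n = 6 libraries a genotype), and lowest, median and highest values are TMM-scaled CPM. A further fit added the sex by genotype interaction. On simulated counts 100 genes were changed by 0.5 and 100 by 1 on the log2 scale. The fit recovered 33% and 62% of them, with 6 false calls among 18634 genes. Far fewer genes were changed there than the 29.8% called here, so these rates do not carry over to the main comparison.

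Alternatives used limma 3.58.1, DESeq2 1.42.0, other scalings, filters and blocks, single sexes, and omission of each library. RPKM values entered limma-trend as log2 of RPKM plus 0.1. The replicate numbers of WT and Dp16 libraries did not pair them: same-numbered libraries had a mean correlation of deviations of 0.03, against -0.01 for others. No 2 libraries of the same genotype were near-identical (chi-square per degree of freedom at least 35.1), and pairs of different genotypes were not compared in this way. Sex-specific genes matched the sex labels of 18 of 18 libraries.

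Named genes were the 8 most abundant and the 3 largest and 3 smallest changes among protein-coding interval genes (for the changes, mean log2 CPM above 3), the 8 protein-coding genes outside it with the largest called change in each direction at 5 CPM or more, and the 2 most abundant members of each list with 3 or more tested members; those of adipocyte and mesothelium lists are given by list only, and 6 genes are not reported here by name but stay in the counts. Members and the 45 lists were chosen with earlier results of these data known, and 2 listed symbols were not matched.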

Additional observations from a re-analysis of the deposited data

Results flagged for a closer look

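In some groups 1 library lay far from the other 5, by the gap to the nearest of them as a share of the group's range (Dixon's 95% criterion, which chance meets in about 1 in 20 groups). All values are CPM unless given as a percent of counts.

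Within WT, replicate 2 was the highest library for the erythroid genes Alas2 (628) and Erfe (2.44), for Isg15 (66.8), Apol11a (4.45) and Apol11b (139), for the purine synthesis gene Gart (101), for the cytokine gene Il1b (39.6) and for the eosinophil gene Ear2 (25.3). Other WT values far from the rest were Actg2 in replicate 3 (38.3), Gp1bb in replicate 5 (1.37) and Samd9l in replicate 1 (188).

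Within Dp16, replicate 5 was the highest library for the platelet genes Gp1bb (6.86), Itgb3 (234) and Ppbp (458), and platelet genes together took 0.164% of its counts. It also stood apart for the granulocyte genes Cebpe (34.5) and Fpr2 (22), the eosinophil and basophil genes Prg2 (173) and Prss34 (66.5), and for Hmox1 (891) and Pkm (768). Dp16 replicate 2 stood nearer to WT than the other Dp16 libraries for Cd37 (499), Cd8a (89.8), Helz2 (195), Il5ra (8.19), Atp5a1 (736) and Igtp (70.6), and farther from WT for Son (627). Dp16 replicate 6 stood apart for Apol11a (37.8), Gcsam (16.6) and Per3 (3.4).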

How the results depend on the processing

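The 5553 called genes, 2462 of them lower, and the 69 higher interval genes changed by less than 1.5 times under most of the 31 alternatives. A block on the description code called 2527 genes, 835 of them lower, and 40 interval genes. Males alone gave 2520, 815 and 40, and females alone 817, 341 and 33. Single sexes use fewer libraries. The code block does too, because libraries whose code no other library shares do not inform the comparison. The rest were compared in part through the Dp16 libraries with normalized interferon receptor dosage. What part of the lower counts comes from this was not tested. Limma-trend on RPKM called 2238 genes higher and 3946 lower, where the median of all genes was -0.13. Omission of single libraries gave 2720 to 3094 higher, 2046 to 2533 lower and 61 to 68 interval genes. The replicate block gave 3008 and 2526; the numbers are shared names only, since 4 of 12 libraries correlated best with their own number. No called gene changed to the opposite call in any setting.

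Named genes that were not called in the main fit changed sign near 0 in some settings. These were, on the log2 scale, Csf3r (0.00401), Hmox1 (0.00225) and Ighm (0.00228) with the 12 libraries alone; Pold1 with DESeq2 (-0.00934) and RLE scaling (-0.00933); and Cebpa with an age term (-0.00149). With the description code block they were Btg2 (0.11), Cebpa (-0.045), Ets2 (0.013), Ighm (0.22), Il1b (0.065) and Pold1 (-0.00344), and with the replicate block Ighm (0.11). In females alone they were Cebpa (-0.10), H2-K1 (-0.062), Pold1 (-0.069), Psmb8 (-0.084) and Txndc5 (-0.18), and in males alone Csf3r (0.029), Ighm (0.073), Il1b (0.32) and Nkg7 (-0.039). With limma voom they were Csf3r (0.021), Ighm (0.23) and Pold1 (-0.026). With limma-trend on RPKM they were Cebpa (-0.096), H2-K1 (-0.093), Ighm (0.052), Nkg7 (-0.00617), Pold1 (-0.11), Psmb8 (-0.084) and Rpl4 (-0.014). Without a filter they were Cebpa (-0.016), H2-K1 (-0.015), Pold1 (-0.031) and Psmb8 (-0.00145). Upper quartile scaling gave Cebpa -0.043, H2-K1 -0.043, Pold1 -0.058, Psmb8 -0.029 and Txndc5 -0.014. Without Gm42418 and mitochondrial genes Csf3r was at 0.00181, and without immunoglobulin, globin and acinar genes Cebpa was at -0.00437, H2-K1 at -0.0037 and Pold1 at -0.019. Without the libraries over 4% Gm42418 these were Csf3r (0.088), Hmox1 (0.16) and Pold1 (-0.058). Over omissions of single libraries the ranges crossed 0 for Adamts1 (-0.48 to 0.031), Cebpa (-0.067 to 0.12), Csf3r (-0.081 to 0.054), H2-K1 (-0.013 to 0.067), Hmox1 (-0.11 to 0.049), Ighm (-0.15 to 0.35), Pold1 (-0.038 to 0.042), Psmb8 (-0.00887 to 0.0698) and Txndc5 (-0.066 to 0.22). The medians of the MHC class I and BCL2 lists, which are near 0, also changed sign with RLE scaling, upper quartile scaling and RPKM. Medians of some other lists changed sign too. The interferon gamma median was -0.041 with limma-trend on RPKM and -0.052 in females alone. The red pulp macrophage median was 0.074 with the code block and 0.093 in males alone. Plasma cell genes had a median of -0.031 in females alone, and stem and progenitor genes 0.002 in males alone.

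Calls of genes near the 0.05 threshold and of genes below 1 CPM, such as a and Erfe in WT, are limited by depth and by the spread of 6 libraries.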

Other observations

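Genes of the unfolded protein response, which plasma and granule-forming cells use when they secrete protein, had 4 of 14 higher and 0 lower (median log2 fold change 0.24), against 16.6% higher among all tested genes. The count was 2 without any 1 of WT replicates 1, 3 and 4 and Dp16 replicates 4, 5 and 6, 7 without WT replicate 6, and 1 with the block on the description code. Calr, the calcium-binding chaperone calreticulin, was at 783 to 1145 CPM in WT (median 996) and 1006 to 1325 in Dp16 (median 1195) (0.31 ± 0.09, adjusted p = 0.0129, edgeR), and Hsp90b1, the chaperone GRP94, at 691 to 1428 CPM in WT (median 1048) and 1039 to 1401 in Dp16 (median 1209.9) (0.23 ± 0.15, adjusted p = 0.301). Calr was not called with limma-trend on RPKM.

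Immunoglobulin variable segments had 13 of 198 higher and 2 lower outside the interval, with a median of 0.33, and T cell receptor variable segments 1 of 74 higher and 0 lower, with a median of -0.22. Variable segments of immunoglobulins took 0.398% to 0.995% of counts in WT and 0.569% to 0.839% in Dp16, with wide overlap. Long noncoding RNAs outside the interval had 100 of 1687 higher and 62 lower, and processed pseudogenes 49 of 948 higher and 2 lower, with a median of 0.21. In the order given, these gene types had 6.57%, 1.35%, 5.93% and 5.17% higher. These shares are under the 16.6% of all tested genes, and their shares lower were under the 13.2% of all. Reads of processed pseudogenes can come from their parent genes. Of 3346 genes outside the interval with a mean log2 CPM above 6, 1032 were higher and 757 lower, and of 4129 with a mean below 0, 91 were higher and 43 lower.

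Marker lists of neighbouring tissue were low. The 5 tested adipocyte genes together took at most 0.00485% of counts and the 5 mesothelium genes at most 0.00227%, and edgeR called 0 of either list and found 0 at an unadjusted p under 0.05 (medians -1.22 and -0.62).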
